A study of Mus musculus with 13 samples.

Results

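Replication-dependent histone genes were examined across 12 ChIP-seq libraries of LβT2 cells, a mouse line with gonadotrope character. They were taken as the protein-coding genes that the deposited annotation tables name with the prefix Hist1h, Hist2h, Hist3h or Hist4h, together with their peaks within 100000 bp of the annotated start. The rule found 35 of the 15486 protein-coding genes named in at least 1 table, and it used names only, no measured strength. A gene enters the tables only if at least 1 peak in 1 library lies nearest to it, so every member and every gene of the background has some peak. The members comprised 32 Hist1 genes, 2 Hist3 genes and 1 Hist4 gene, and no Hist2 gene was named. By product they encode 3 linker histones H1, 3 H2A, 11 H2B, 8 H3 and 10 H4.

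Replication-dependent histone genes supply the bulk of the H1, H2A, H2B, H3 and H4 protein that packages newly copied DNA, and they are transcribed mainly in S phase. They lack introns, lie in dense clusters of which Hist1 is the largest, and their mRNAs end in a conserved stem-loop rather than a poly(A) tail. NPAT drives their transcription from nuclear bodies that form on the clusters. HINFP acts with it at H4 promoters, and the octamer-binding factor OCT1 acts at H2B promoters.

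The cells were a stably transduced LβT2 line that expresses GFP constitutively from the lentiviral cassette and FLAG-tagged mouse FOXL2 (FLAG-mFoxL2) under doxycycline control, so the FOXL2 measured is the tagged, induced protein. All groups were seeded in 10% serum, left for 24 h, given doxycycline for 48 h and held for 2 h in 2% serum before a treatment of 1 h with activin A (1 nM) or with its vehicle. Each of 3 antibodies (FLAG, here called FOXL2; SMAD2/3; acetylated lysine 27 of histone H3, H3K27ac) was used on 2 samples per treatment, and a sample was a pool of 3 plates. Activin A signals through SMAD2 and SMAD3, FOXL2 is a forkhead factor of the gonadotrope, and H3K27ac marks active promoters and enhancers. A Protein-A control sample is described in the labels and was not analysed here. The labels do not say whether the 2 samples of a treatment were separate cultures grown on separate days, so their spread may be technical.

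The H3K27ac lists held 38995 to 41763 peaks and the FOXL2 lists 83834 to 97701. SMAD2/3 peaks numbered 605 and 144 under vehicle, then 7784 and 5970 under activin. Reads per library are unknown from peak lists, so list lengths stand in for depth. Of 10 gonadotrope marker genes, 8 had H3K27ac at the start in both libraries of each treatment, Fshb had none and Egr1 had it in 1 library. The markers of other pituitary cells whose start was known, Prl, Tshb and Pomc, had none.

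On chromosome 13 the Hist1 members formed 5 groups separated by more than 100000 bp. The first held 6 starts (21716143 to 21833743), the second 3 (22035870 to 22043214), the third 11 (23531050 to 23581598) and the fourth 11 (23684199 to 23763717). Hist1h2ba, a histone H2B gene of the testis type, stood alone at 23934156. Hist4h4 starts at 136804431 on chromosome 6, and Hist3h2ba and Hist3h2a start at 58948920 and 58954685 on chromosome 11.

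Upstream sequences are shown for 6 members that mark the range of the results: Hist1h2af, Hist1h3e, Hist4h4 and Hist1h2bm had the strongest FOXL2 peaks at the start, Hist1h3g shared the highest H3K27ac rank, and Hist1h2br had neither. Each is the 250 bases before the RefSeq start (GRCm38.p6), read 5′ to 3′ on the gene's strand. Capitals mark the searched motifs on either strand, namely the TATA box TATAAA, the CCAAT box, the octamer ATTTGCAT and the forkhead core TAAACA. Adjacent matches run together, as at the single Hist1h2bm site where CCAAT and TAAACA overlap.
Hist1h2af, chr13:23533625-23533874, plus strand: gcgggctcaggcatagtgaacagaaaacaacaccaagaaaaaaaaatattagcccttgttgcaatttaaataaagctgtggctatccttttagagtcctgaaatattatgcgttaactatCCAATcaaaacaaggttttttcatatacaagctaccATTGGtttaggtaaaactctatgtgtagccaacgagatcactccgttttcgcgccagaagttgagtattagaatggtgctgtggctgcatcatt
Hist1h3e, chr13:23562386-23562635, minus strand: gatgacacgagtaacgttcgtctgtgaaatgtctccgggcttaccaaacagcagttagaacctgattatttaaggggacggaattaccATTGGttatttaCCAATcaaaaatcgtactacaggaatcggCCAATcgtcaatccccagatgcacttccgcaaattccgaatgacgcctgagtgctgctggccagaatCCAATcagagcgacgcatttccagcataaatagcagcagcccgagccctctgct
Hist4h4, chr6:136804432-136804681, minus strand: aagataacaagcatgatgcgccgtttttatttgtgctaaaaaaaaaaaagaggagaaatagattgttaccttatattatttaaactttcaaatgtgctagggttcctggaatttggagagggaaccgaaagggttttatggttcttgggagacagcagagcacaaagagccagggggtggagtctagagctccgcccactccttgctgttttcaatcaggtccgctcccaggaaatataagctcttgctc
Hist1h2bm, chr13:21721794-21722043, plus strand: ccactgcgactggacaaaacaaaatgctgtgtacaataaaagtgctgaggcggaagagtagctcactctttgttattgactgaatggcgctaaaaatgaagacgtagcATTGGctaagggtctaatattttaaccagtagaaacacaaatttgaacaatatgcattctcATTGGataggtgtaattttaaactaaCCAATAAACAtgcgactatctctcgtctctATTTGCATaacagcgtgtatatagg
Hist1h3g, chr13:23535168-23535417, plus strand: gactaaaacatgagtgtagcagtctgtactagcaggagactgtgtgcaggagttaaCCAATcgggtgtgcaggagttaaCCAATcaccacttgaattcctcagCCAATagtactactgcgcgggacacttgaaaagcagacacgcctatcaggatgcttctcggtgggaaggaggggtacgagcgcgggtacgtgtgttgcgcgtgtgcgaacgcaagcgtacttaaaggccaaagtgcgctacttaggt
Hist1h2br, chr13:21833493-21833742, plus strand: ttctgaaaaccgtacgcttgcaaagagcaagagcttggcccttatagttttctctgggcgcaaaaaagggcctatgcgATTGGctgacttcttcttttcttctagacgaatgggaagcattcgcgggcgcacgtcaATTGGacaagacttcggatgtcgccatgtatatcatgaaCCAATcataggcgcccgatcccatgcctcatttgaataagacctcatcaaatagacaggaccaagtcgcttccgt

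All 35 members matched a RefSeq gene, and 32 had a promoter window of 300 bases, 250 before and 50 after the start, whose start lay within 87 bp of the one used here. CCAAT was found in 25 of 32 member windows (78.1%) and in 37.4% of all 32851 windows. All 22 windows of H1, H2A, H2B and H3 genes held it, against 3 of 10 windows of H4 genes. TATAAA was found in 17 (53.1%, against 13.6% of all windows) and the octamer in 7 (21.9%, against 1.74%). The octamer matches fell on 5 of 10 H2B and 2 of 3 H2A windows and on none of the H1, H3 or H4 windows. The forkhead core was found in 8 windows (25%, against 13.4%), the SMAD palindrome GTCTAGAC in none (0.213% of all windows), and the short SMAD element CAGAC in 22 (68.8%, against 49.6%). These are matches of letters in a window on both strands, not binding sites.

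The first comparison asked where acetylation stood at the starts. H3K27ac, counted where a peak overlapped the 500 bp on either side of a start, was present in both vehicle libraries at 33 of 35 members (94.3%) and in both activin libraries at 30 (85.7%). Over the 14994 protein-coding genes with a derived start the shares were 45.4% and 44.9%. Starts in the clusters are dense, so the peak that names a member tends to lie near its start. A background gene can be named by a peak farther away, and the part of this in the shares was not tested. Of 30 further RefSeq histone starts not named in the deposited annotation, 9 and 8 had the mark in both libraries, as described below. By library, 34, 33, 32 and 30 members were marked in vehicle 1, vehicle 2, activin 1 and activin 2. All 3 H1, 3 H2A and 8 H3 genes were marked in every library, as were 9 of 11 H2B and 7 of 10 H4 genes. With a peak required to overlap the start itself, 18 members were marked under vehicle and 13 under activin, and the shares over all genes were 23.4% and 23%.

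**Figure D1:**
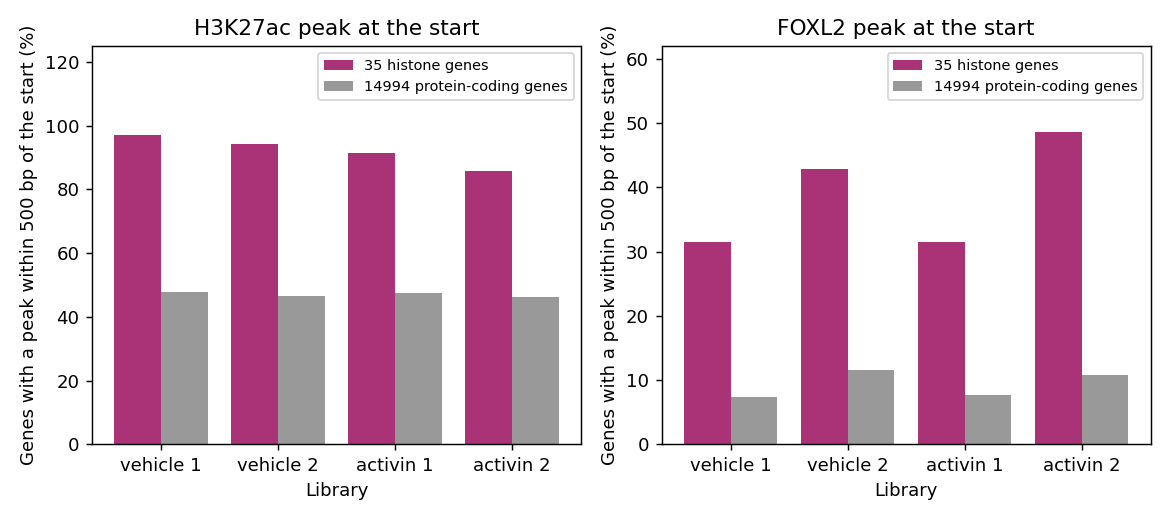
Share of genes (y axis, percent) with an H3K27ac peak (left) or a FOXL2 peak (right) within 500 bp of the start, in each of 4 libraries (x axis), for the 35 histone genes and for 14994 protein-coding genes. The histone bars stand above the grey bars in all libraries, and the FOXL2 bars of replicate 2 are the higher ones in each treatment.

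H3K27ac was missing at the start in some library at 5 members. Hist1h2br, an H2B gene, had none in any library. Hist1h2ba had a peak in vehicle 1 only. The other 3 encode histone H4. Hist1h4c had peaks in the vehicle libraries and none under activin. Hist1h4d had peaks in 3 libraries, at ranks 51.3 and 62.4 under vehicle and 3.0 in activin 1, and Hist1h4b also in 3, at ranks 42.4 and 27.7 under vehicle and 30.6 in activin 1. The rank is the percentile of a peak by −log10 q within its own list, where 100 is the strongest peak.

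Marked starts lay in or near wide, often shared regions. When peaks of the 4 libraries that share at least 1 bp were merged, 33 distinct H3K27ac regions lay at member starts. Their median width was 2563 bp, against 1113 bp for the 8498 regions at all protein-coding starts, and 6 of the 33 (18.2%) reached 5000 bp, against 3.41%. As many as 4 starts lay within 500 bp of 1 region, chr13:23745641-23752264. Hist1h2bb and Hist1h2ab start inside it, and Hist1h3c and Hist1h3b start just outside its ends. The widest region, 9566 bp at chr11:58947411-58956976, covered both Hist3h2ba and Hist3h2a. Members at 1 region often share its peaks and are not independent.

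A start often lay in a short break in the mark. Of the 34 members with H3K27ac at the start in any library, 23 lay inside a merged region, 9 between 2 regions and 2 beside 1 region. The share between 2 regions was 26.5%, against 15.9% of the 7620 marked protein-coding genes. The breaks at these members ran from 295 to 505 bp with a median of 304 bp. The 9 were Hist1h2bm, the H3 genes Hist1h3b, Hist1h3c, Hist1h3d, Hist1h3f and Hist1h3g, and the H4 genes Hist1h4a, Hist1h4c and Hist1h4d.

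Peak strength differed widely among members. Hist1h2af (H2A) and Hist1h3g (H3) had the highest mean rank, 97.8, from 1 shared peak in each library, at 95.7 and 99.3 under vehicle and 98.2 and 98.2 under activin. Next came Hist3h2ba at 95.3, the H4 gene Hist1h4i at 91.1, and Hist1h3c and Hist1h2bb at 89.3. The 5 lowest mean ranks among members marked in every library were all H2B genes. They were Hist1h2bj (46.8), Hist1h2bc (50.4), Hist1h2bk (53.1), Hist1h2bm (61.9) and Hist1h2bl (65.0). At Hist1h2bl the vehicle libraries stood far apart, at 52.6 and 84.7.

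**Figure D2:**
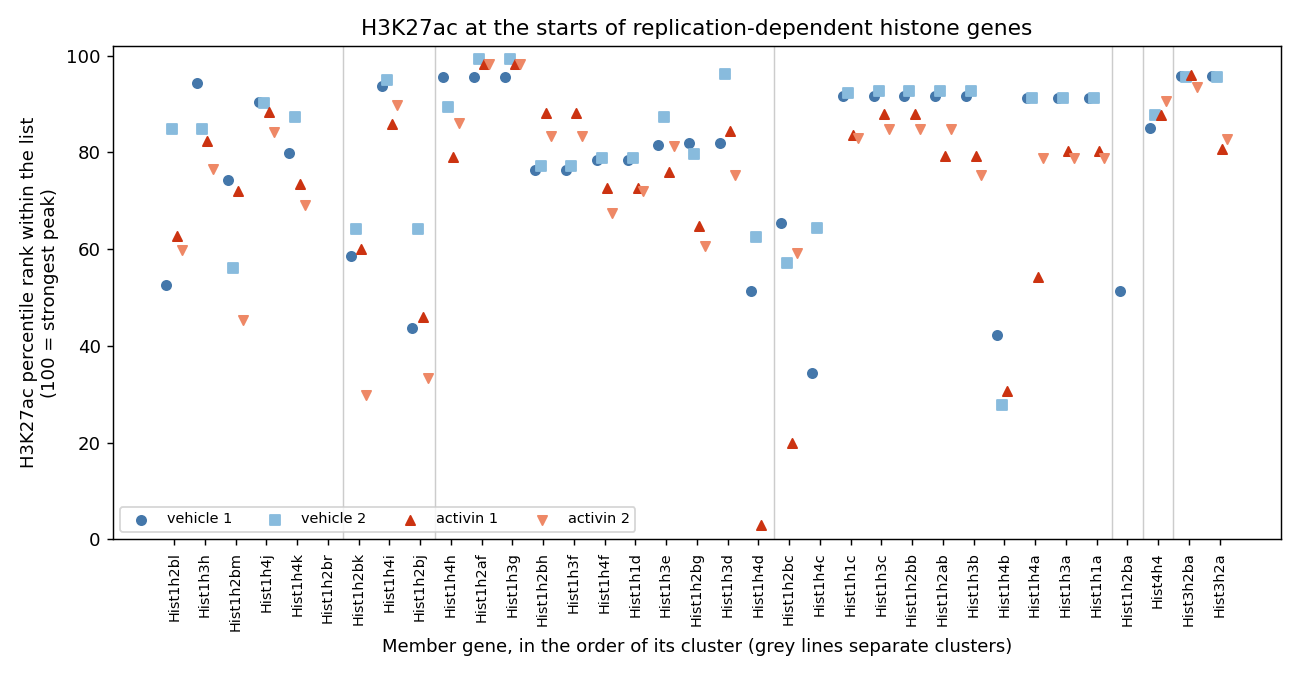
H3K27ac percentile rank at the start (y axis, 100 is the strongest peak of a library) for each of the 35 members (x axis, in cluster order, grey lines between clusters), 1 marker per library. In the fourth cluster 8 of 9 members with 4 markers have both vehicle markers above both activin markers, and missing markers mean no peak.

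The second comparison asked whether acetylation at these starts differed after 1 h of activin. Ranks were compared for the 30 members with a peak in all 4 libraries. At 18 (60%) both activin ranks were below both vehicle ranks, at 3 (10%) both were above, and at 9 they overlapped. Among all 6434 genes with a peak in all 4 libraries, activin was lower at 25.3% and higher at 21.9%. The members' median rank was 90.9 and 89.8 under vehicle, then 80.3 and 80.2 under activin. Over all genes it was 76.4 and 75.5 under vehicle and 76.4 and 75.6 under activin. The median difference, activin minus vehicle, was -8.66 rank points for the members, of which 25 of 30 lay below 0, and -0.296 for all genes. Members have high ranks, so the 1706 genes whose mean rank lay in the middle range of the members (from 76.0 to 88.1) were also counted: 25.1% were lower, 24.2% higher, and the median difference was -0.0897.

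**Figure D3:**
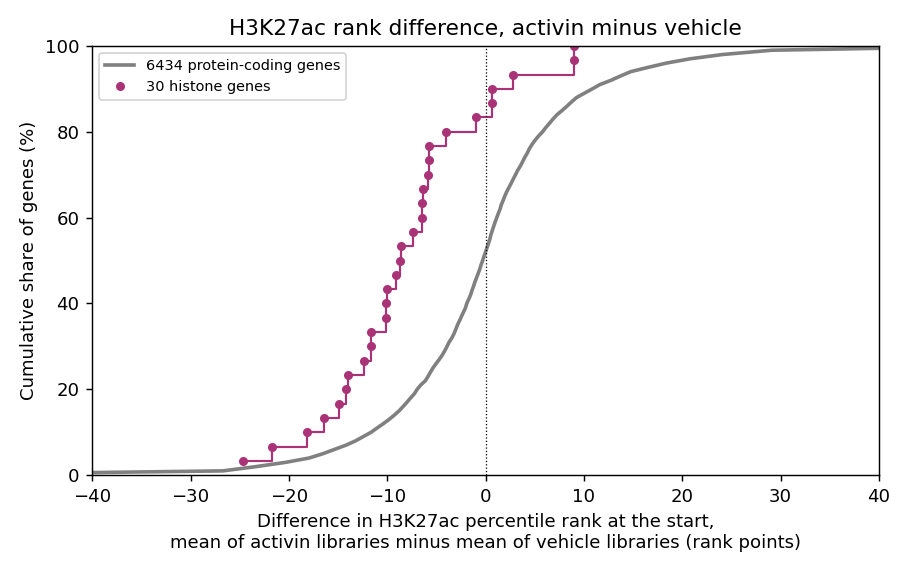
Cumulative share of genes (y axis, percent) against the difference in H3K27ac rank at the start, mean of activin libraries minus mean of vehicle libraries (x axis, rank points), for 30 histone genes and 6434 protein-coding genes. The histone points run from -24.7 to 8.99 and lie mostly left of the grey curve.

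With 4 libraries there are 6 ways to assign the treatments, so a two-sided exact permutation test of a single gene gives p = 0.33 at best and no member could pass 0.05. Each member whose groups do not overlap has that smallest exact p. Fewer cells with the mark and less of the mark per cell cannot be told apart in these bulk samples.

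Hist1h4a, an H4 gene, showed the largest difference among members whose groups did not overlap. Its ranks were 91.3 and 91.2 under vehicle and 54.3 and 78.9 under activin, a difference of -24.7. In activin 1 that rank came from a peak of 655 bp, where the vehicle peaks measured 3089 and 3097 bp. The strongest activin 1 peak of the same merged region lay outside the 500 bp window and had rank 80.3. At Hist1h3a, which takes that peak, the difference was -11.6. Hist1h2bg, an H2B gene, stood at 81.9 and 79.6 under vehicle and 64.7 and 60.6 under activin (-18.1). The activin libraries were both low and close together there. Hist1h3b, an H3 gene, had ranks of 91.6 and 92.8 under vehicle and 79.3 and 75.3 under activin (-14.9). Hist1h2bh (H2B) and Hist1h3f (H3) share 1 peak and went the other way, at 76.3 and 77.3 under vehicle and 88.2 and 83.4 under activin (+8.99). Hist4h4, away from the Hist1 clusters, stood at 85.0 and 87.62 under vehicle and 87.65 and 90.6 under activin (+2.82). Its groups were thus barely apart. The top ranked Hist1h2af and Hist1h3g differed by 0.70, less than the 2.54 SD between their vehicle libraries (n = 2).

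The lower ranks were spread over histone types and clusters. They included 3 of 3 H1, 2 of 3 H2A, 2 of 9 H2B, 5 of 8 H3 and 6 of 7 H4 genes marked in every library. By cluster they included 3 of 5 members of the first Hist1 group, 1 of 3 of the second, 5 of 10 of the third and 8 of 9 of the fourth. Hist3h2a was lower as well (95.8 and 95.6 under vehicle, 80.7 and 82.8 under activin), while its neighbour Hist3h2ba overlapped (95.8 and 95.6, then 96.0 and 93.6). Under vehicle both took the rank of 1 shared peak (9273 and 9201 bp), and under activin each had its own shorter peak. Their merged region, ranked by its strongest peak, had the ranks of Hist3h2ba. When each merged region was counted once, 15 of 28 regions present in all libraries were lower (53.6%) and 2 were higher, against 24.6% and 22.5% of 6950 regions, with medians of -7.37 and -0.235.

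The peaks were also shorter under activin. At 21 of 30 members (70%) the strongest peak at the start was narrower in each activin library than in either vehicle library, and at none was it wider. Over 6434 genes 26.5% were narrower and 15.4% wider. Median widths of the members' peaks were 3721 and 3097 bp under vehicle and 2052 and 1602 bp under activin. For all genes they were 1136 and 1063 bp, then 1110 and 1003 bp. Over the 33 regions, peaks covered 91.7 and 90.9 kb under vehicle and 75.1 and 66.5 kb under activin, while the number of peaks went from 39 and 39 to 43 and 45. Over all 8498 start regions the covered length was 10799 and 10406 kb under vehicle and 10699 and 9743 kb under activin.

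Of the 18 lower members 15 were also narrower, against 504 of the 1628 lower genes overall. Hist1h2bh and Hist1h3f were narrower and higher, and their shared peak measured 2309 and 2469 bp under vehicle and 618 and 576 bp under activin. The deposited fold enrichment, averaged over the covered bases of the 33 regions, was 5.45 and 5.23 under vehicle and 4.67 and 4.85 under activin. For all start regions it was 5.39 and 5.06, then 5.36 and 5.37. The median fold enrichment of the members' peaks did not separate the treatments, at 4.22 and 4.32 under vehicle and 3.996 and 4.33 under activin. The part of peak width in the rank difference was not tested.

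All H3K27ac regions nearest to a member were then counted, at any distance to 100000 bp. Of 44 regions, 29 were present in all 4 libraries (65.9%, against 51.4% of 30309 regions), 3 in both vehicle libraries only, and none in both activin libraries only. Over all genes 5.35% of regions were vehicle-only and 5.33% activin-only. The vehicle-only regions at starts lay at Hist1h4c, on either side of the start, and at Hist1h4d. The number of H3K27ac peaks per library nearest to members was 40 ± 2.83 (SD, n = 2) under vehicle and 39.5 ± 0.707 (SD, n = 2) under activin.

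The third comparison concerned FOXL2 at the starts. A FOXL2 peak overlapped the 500 bp on either side of the start in both vehicle libraries at 11 of 35 members (31.4%, against 6.1% of 14994 genes) and in both activin libraries at 10 (28.6%, against 6.38%). In all 4 libraries it did so at 8 members (22.9%, against 4.46%), namely Hist1h2af, Hist1h3e, Hist4h4, Hist1h2bm, Hist1h3d, Hist1h4h, Hist1h3f and Hist1h1d. By library the counts were 11, 15, 11 and 17 in vehicle 1, vehicle 2, activin 1 and activin 2, so replicate 2 was higher in each treatment. Over all genes the shares likewise ran 7.34%, 11.5%, 7.63% and 10.7%. Without activin replicate 1, the activin count was 17. As with H3K27ac, the part of dense starts in these shares was not tested. Of the 30 further RefSeq histone starts, 1 had FOXL2 in both vehicle libraries and 0 in both activin libraries.

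These peaks were weak. Hist1h2af (H2A) had FOXL2 ranks of 51.8 and 58.4 under vehicle and 57.8 and 74.1 under activin. Hist1h3e (H3) had 54.6 and 68.2, then 44.1 and 69.9. Hist4h4 had 62.5 and 60.5, then 39.0 and 66.3. Treatment groups overlapped at these 3 genes. The median of the mean rank was 35.4 for the 8 members with a peak in every library and 53.3 for the 669 such genes overall. Among the 8, Hist1h2bm alone was higher in both activin libraries (29.7 and 20.5, then 39.2 and 54.1) and none was lower, against 18.8% and 20.5% of the 669.

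FOXL2 at the starts lay mostly in the third Hist1 group, which held 8 of the 11 members occupied in both vehicle libraries and 6 of the 10 occupied in both activin libraries. The fourth group, with the same number of starts, held 1 and 0. The median of the mean H3K27ac rank was 81.4 in the third group and 85.4 in the fourth. The forkhead core stood in 3 of 9 windows of members with FOXL2 in both activin libraries and in 3 of 15 windows of members with FOXL2 in neither. As printed above, the 250 bases before Hist1h2af, Hist1h3e and Hist4h4 hold no TAAACA, while those before Hist1h2bm hold 1 and the Hist4h4 window holds 1 after the start. The Hist1h2bm match begins 51 bases before the start. Lower H3K27ac ranks were counted at 5 of 10 members with FOXL2 at the start in both activin libraries, at 7 of 14 with FOXL2 in neither and at 6 of 6 with FOXL2 in 1 activin library, among members with H3K27ac in every library.

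Most FOXL2 regions nearest to a member lay close to its start. Starts in the clusters are dense, as with the 11 of the third group (23531050 to 23581598), which limits the distance to the nearest start. The part of this in the shares below was not tested. Of 51 FOXL2 regions nearest to a member, 17 were centred within 500 bp of the start (33.3%, against 3.43% of 55754 regions nearest to any gene), 29 beyond that and within 5000 bp (56.9%, against 17.6%) and 5 farther away (9.80%, against 78.9%). H3K27ac regions overlapped 35 of the 51 (68.6%, against 27.5%). In the same 3 distance classes the overlapping shares were 94.1%, 65.5% and 0%, against 74.8%, 36.0% and 23.5%. Present in all 4 libraries were 19 (37.3%, against 47.0%), in both activin libraries only 3 and in both vehicle libraries only 3 (8.32% and 3.36% over all genes). The share in all 4 libraries differed by distance. Within 500 bp it was 8 of 17 (47.1%, against 27.9%), and beyond that to 5000 bp 10 of 29 (34.5%, against 43.4%). At gene level, 20 members had a FOXL2 region in both vehicle libraries and 18 in both activin libraries (57.1% and 51.4%, against 60.2% and 64.4% of all named genes). The number of FOXL2 peaks per library was 35 ± 4.24 (SD, n = 2) under vehicle and 36.5 ± 9.19 (SD, n = 2) under activin.

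**Figure D4:**
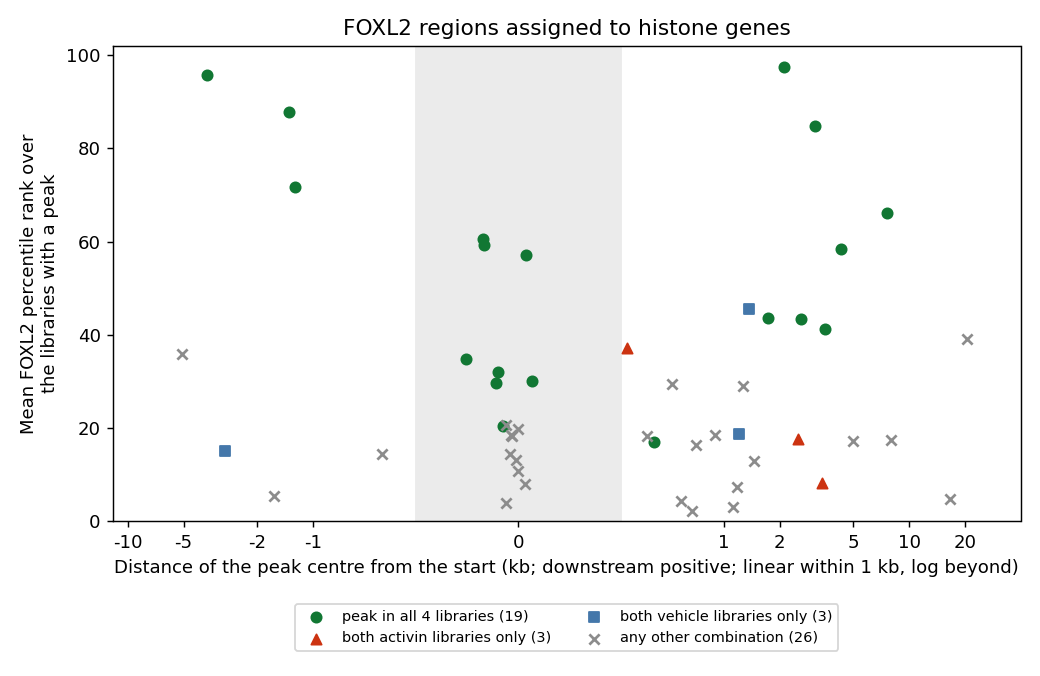
Mean FOXL2 percentile rank over the libraries with a peak (y axis) against distance from the start to the peak centre (x axis, kb, linear within 1 kb and logarithmic beyond) for the 51 FOXL2 regions nearest to histone genes, marked by the libraries that hold them. The shaded band is within 500 bp of the start, and no region inside it reaches a mean rank of 90. Over all genes 35 of 1910 regions within 500 bp do.

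The strongest FOXL2 regions stood between genes, not at starts. A mean rank of 90 was reached by 2 of the 51 regions, against 3492 of 55754 over all genes. Within 500 bp of the start it was reached by 0 of 17, against 35 of 1910. The region chr13:23548835-23550181, annotated as intergenic 2115 bp downstream of the start of Hist1h4f (H4), had ranks of 95.5 and 97.3 under vehicle and 98.2 and 98.7 under activin. Its deposited fold enrichment was 32.9 and 33.5 under vehicle and 41.0 and 40.4 under activin, and both activin ranks stood above both vehicle ranks. The intergenic region chr13:23734870-23735324, 3721 bp upstream of Hist1h1c (H1), had ranks of 96.8 and 97.4, then 93.1 and 95.9, so activin was the lower group. A second region upstream of Hist1h1c, chr13:23737144-23737952, had 89.1 and 93.1, then 82.9 and 86.2, again lower under activin. The region chr13:21712570-21713486, 3083 bp downstream of the start of Hist1h2bl (H2B), had 84.4 and 73.7, then 92.1 and 88.8, so activin was the higher group. These regions were chosen for their strength, and the share of such calls over all FOXL2 regions was not counted. At the starts of 669 genes it was 18.8% higher and 20.5% lower. H3K27ac overlapped the Hist1h4f region in all 4 libraries, and the Hist1h2bl region in none.

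**Figure D5:**
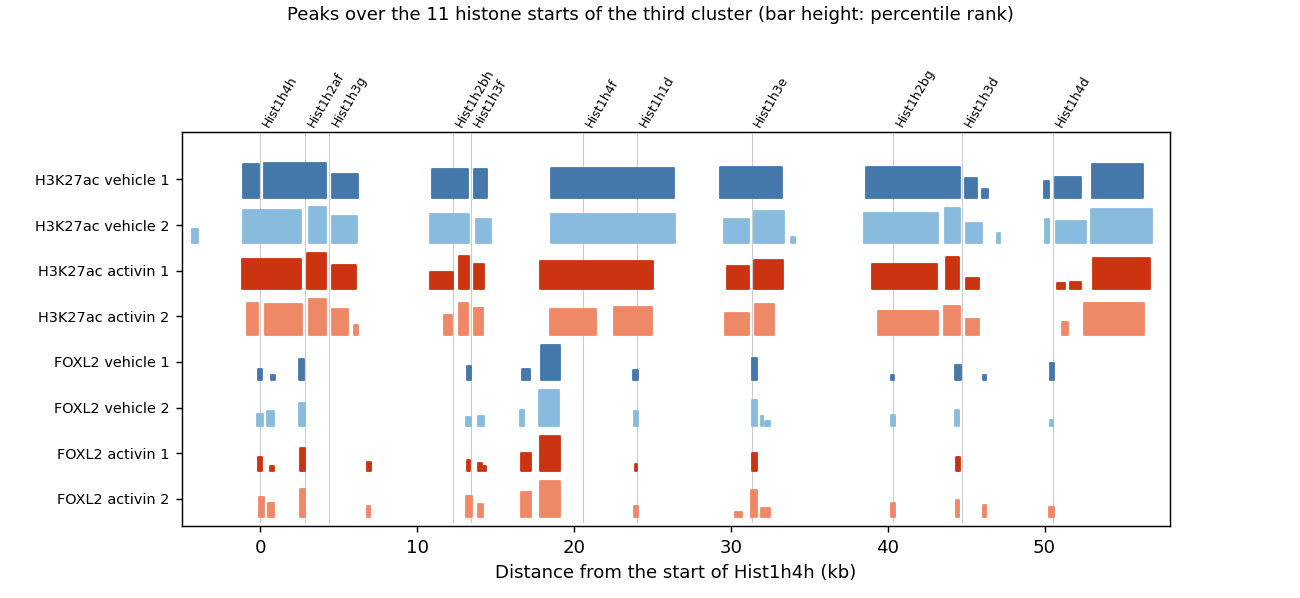
Map of the third Hist1 group: H3K27ac and FOXL2 peaks of each library (rows) against distance from the start of Hist1h4h (x axis, kb), with bar height proportional to percentile rank and grey lines at the 11 starts. FOXL2 bars stand near 8 of the starts in vehicle 1, and the tallest lies between Hist1h3f and Hist1h4f.

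SMAD2/3 peaks at these genes were few and none recurred between libraries. No member had a SMAD2/3 region in both activin libraries within 100000 bp, against 11.1% of the 15486 named genes. None had a peak at the start in both (0.42% of 14994). A region counts for its nearest start only, so each of the dense member starts collects regions from a short stretch. The part of this in the comparison with 11.1% was not tested. In all, 5 SMAD2/3 regions were nearest to members, each in a single library, so none was activin-only, against 54.1% of 3923 regions over all genes. At the start, 4 members had a peak in some library (11.4%, against 1.11% of all genes), so the single-library share stood above that of all genes. Vehicle 1 held 3 of the regions (8.57% of members, against 0.42% of genes with a peak at the start), at the starts of Hist3h2a (rank 2.1), Hist1h4k (62.7) and Hist1h4i (7.4). Activin 1 held 2, at the start of Hist1h2bg (15.6; 2.86% of members, against 0.734% of genes) and inside the strong FOXL2 region near Hist1h4f (36.5). Of the 605 peaks in the vehicle 1 list 15.4% were annotated to promoters, against 4.33% in activin 1, and its peaks have no counterpart at members in vehicle 2.

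Other genes of the pathway were counted from a list of 18 genes for histone gene transcription and mRNA processing. H3K27ac was at the start in both vehicle libraries at 10 and in both activin libraries at 8, and 7 had none in any library. Over all genes with a derived start these shares were 45.4%, 44.9% and 49.2%. Of the 8 marked in all 4 libraries, Cpsf2, a subunit of the cleavage complex, was higher (94.6 and 94.8, then 95.1 and 97.1), Casp8ap2, a histone locus body protein, was lower (86.0 and 84.4, then 70.0 and 84.1), and 6 overlapped. Over all 6434 genes marked in all 4 libraries 21.9% were higher and 25.3% lower. Slbp, which binds the stem-loop, had ranks of 95.6 and 90.9, then 95.0 and 97.1. Npat itself had no H3K27ac peak at the start used here. Peaks at other starts of a listed gene were not counted. SMAD2/3 regions in both activin libraries were nearest to Cpsf2 and Pou2f1, the gene of OCT1. These are 2 of the 18 genes, against 11.1% of all named genes.

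Replication-independent histone genes encode variants made through the cell cycle. Of 11 listed genes 10 had a derived start, and 9 of these were marked in all 4 libraries. H2afz, H2afy, H3f3a and H3f3b were higher in both activin libraries, H2afj was lower, and 4 overlapped, with a median difference of +1.82. Over all genes with a derived start 42.9% were marked in all 4 libraries. Of those, 21.9% were higher and 25.3% lower, with a median difference of -0.296. H2afz, which encodes the H2A variant of active promoters, had ranks of 91.3 and 85.8 under vehicle and 97.0 and 95.9 under activin. H3f3b, a gene for the replacement form of H3, had 80.0 and 79.2, then 84.9 and 88.4. The difference between these genes and the members was not tested.

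RefSeq lists 67 protein-coding genes under these 4 name prefixes, of which 32 were not named in the tables, 22 in Hist1 and 10 in Hist2. A start was known for 30 of the 32. H3K27ac lay at the start in both vehicle libraries at 9 and in both activin libraries at 8, all in Hist1. None of the 8 Hist2 starts had any peak of any antibody. Those 8 lay in an interval of 289728 bp on chromosome 3 (96187758 to 96477485) without a peak in any of the 12 libraries. It held 11 protein-coding starts, so some were not of histone genes. A second such interval, chr13:21753420-21854045, held 12 protein-coding starts, all of them histone genes, and Hist1h2br is among them. Another, chr13:23620896-23673174, held the starts of Hist1h1e and Hist1h2be and no other. Of 146641 intervals between peaks, 905, 4275 and 9196 were at least as long as these, in the order given. Among intervals of at least 20000 bp and no longer than each, 5, 1 and 289 held at least as many protein-coding starts, itself included. Among 8 windows in the chromosome 3 interval 4 consisted for more than 50% of 50-base words that recur elsewhere in the promoter table, and among 12 in the interval with Hist1h2br 6 did. The windows of Hist1h1e and Hist1h2be held 0 recurring words. Hist1h2be starts near the edge of its interval and had H3K27ac within 500 bp in all 4 libraries (ranks 53.4 and 62.2 under vehicle, 47.1 and 51.7 under activin), while Hist1h1e had no peak of any antibody at its start. Of the 32 member windows only that of Hist1h2br passed 50% recurring words, and its 300 bases recurred in full. Reads of 50 bp from such windows have more than 1 place to align, how they were handled is not given in the sources used here, and the part of this in the missing peaks was not tested.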

How the data were processed

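ChIP-seq of FLAG-FOXL2, SMAD2/3 and H3K27ac in LβT2 cells gave 12 libraries, 2 for each antibody and treatment, with single-end reads of 50 bp per the labels' protocols. The authors deposited 1 peak list and 1 annotation table per library, called per library. The lists are narrow peaks for FOXL2 and SMAD2/3 and broad peaks for H3K27ac. Bowtie2, MACS2, HOMER and the builds GRCm38 and mm10 are named, without versions or roles, per the submitters' processing notes, and HOMER's annotatePeaks wrote the annotation per the file headers. The use of the control and the handling of reads with several places to align are not given in the sources used here. Per peak the authors deposited a fold enrichment (a ratio on a linear scale), −log10 p, −log10 q and a score, which is −log10 q times 10 without its decimals. The smallest −log10 q was 1.30 in the FOXL2 and SMAD2/3 lists and 1.00 in the H3K27ac lists.

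Gene starts were derived from peak centres and deposited distances, for 14994 of 15486 protein-coding genes, with the strand of 443 genes, 1 of them a member, settled by a RefSeq gene end within 100 bp. Each gene had 1 such start. Shares at starts may therefore be too low for genes with several starts, also in the background. Strength was the percentile rank by −log10 q within a list, since values of different lists are not on 1 scale. Groups were called higher or lower where the 2 activin ranks lay entirely above or below the 2 vehicle ranks, with shares over all genes as background. Overlapping peaks (1 bp or more) from the 4 libraries of each antibody were merged. The scripts were tested on simulated peaks with known starts, regions and ranks, and run in Python 3.11.15 with pandas 2.3.3 and numpy 2.4.6. The depth is unknown, so no confidence interval from reads is given.

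The members, the gene lists and the tests were chosen with earlier results of these data known. Genes named were those with a FOXL2 region in both libraries of a treatment or a SMAD2/3 region in both activin libraries within 10000 bp, the 5 highest and 5 lowest mean H3K27ac ranks, those without H3K27ac at the start, and the 3 largest rank differences in each direction where groups did not overlap. Of the first kind only the strongest are described one by one. The other genes named, the comparison of peak widths and of breaks in the mark, and the count by merged region were added after values were seen. Pseudogenes with these prefixes (Hist1h2aj and Hist3h2bb-ps) were left out by the rule. Replicate numbers are given by the labels and do not tie a vehicle sample to an activin sample.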

Additional observations from a re-analysis of the deposited data

How the results depend on the processing

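Of 127 values recomputed under other settings, 97 stayed within 1.5 times the reported count or within the spread between replicates, and 30 moved. Only the median rank difference carries a sign, since the other values are counts, and it stayed negative. Depth is unknown, so weak peaks may come and go with it. With a peak required to overlap the start itself, the counts were 18 and 13 for H3K27ac (vehicle, activin), 6 and 4 for FOXL2, 9 lower and 1 higher H3K27ac rank, and a median difference of -6.46. With −log10 q of at least 5 the median difference was -8.01, 19 H3K27ac regions were in all 4 libraries, and 1 H3K27ac and 1 FOXL2 region were vehicle-only. Ranking by fold enrichment gave a median of -9.63, and counting each merged region once, an alternative chosen after seeing the data, gave -7.37. Where a library had to cover 50% of a merged region, 5 H3K27ac regions were vehicle-only.

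Leaving out each library in turn gave 11 to 17 members with FOXL2 at the start under activin (17 without activin replicate 1), 0 to 1 with SMAD2/3 there (1 without activin replicate 2) and 3 to 6 higher H3K27ac ranks (6 without vehicle replicate 2). The median difference ran from -8.80 to -6.67. FOXL2 activin-only regions numbered 4 to 8 (5 and 8 without vehicle replicate 1 and 2, 7 without activin replicate 1) and vehicle-only regions 3 to 8 (6 and 5 without vehicle replicate 1 and 2, 8 without activin replicate 2). H3K27ac vehicle-only regions numbered 3 to 9 (9 and 7 without vehicle replicate 1 and 2). SMAD2/3 regions numbered 0 to 2, both as present under activin and as activin-only (2 without activin replicate 2). A left-out library loosens the rule for both, since 1 library then stands for its group. With a replicate block, each activin library against the vehicle library of the same number, 19 ranks were lower and 3 higher. The block does not enter the median difference, which is -8.66 by construction. Deviations of same-numbered libraries correlated at -0.0576 for H3K27ac over 6434 genes and 0.268 for FOXL2 over 669 genes, and the labels give the numbers no shared source.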
